A study of Canis lupus familiaris with 10 samples.

Results

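The genes described here are the 39 collagen chain genes among the 23266 gene symbols measured in canine cutaneous histiocytoma (CCH). They were chosen by their symbol alone (COL, a number, A, a number), and no measured value entered the choice. By the collagen each chain belongs to, 10 are fibrillar chains, 6 are type IV chains of the basement membrane and 23 belong to other collagens. A further 6 chain genes, COL2A1, COL6A4, COL10A1, COL19A1, COL20A1 and COL26A1, were not analysed here.

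Histiocytoma of the skin is a tumor of the Langerhans cell lineage that usually disappears without therapy. QuantSeq 3′, which yields 1 fragment near the polyadenylated end of each transcript, was applied to formalin-fixed, paraffin-embedded (FFPE) tumors of 5 dogs in the early stage (group 1 of a histological staging scheme) and 5 dogs in the late stage (group 3, labeled as enriched in lymphocytes). The early dogs were 0.5 to 5 years old, with an age given for 4 of them, and the late dogs were 1.5 to 9 years old. No treatment of any dog is given in the labels. The tumors were surgical specimens from pet dogs of several breeds, RNA came from whole cross sections after adjacent tissue had been removed, and stromal and epidermal cells left in the section can contribute RNA. The libraries held 2973125 to 4439709 reads assigned to genes, and a count of 0 allows a normalized read count of up to 2.36 to 3.22, which is the value of 3 reads and covers counting error only. Column names of the deposited table give the stage but not the dog, and the library numbers 1 to 5 used below serve as names alone. The DV200 value, a measure of RNA fragment length in percent, was 68.5 ± 2.46 in early and 73.2 ± 2.09 in late samples (SD, n = 5 each), and the supplement of the study lists the stages in different RNA extraction batches, so that stage, batch and RNA quality cannot be told apart. Of the Langerhans and dendritic cell markers, CD1A8 measured 42.8 to 316 in early and 0 to 35.8 in late CCH, with no read in late library 4. Other genes of this list did not move alike. EPCAM measured 24.8 to 49.3 in early and 12.3 to 80.9 in late CCH, and CD1C had 20 early and 36 late reads. The whole list of 7 measured genes summed to a normalized read count of 731 to 2284 in early and 610 to 928 in late CCH, of which ITGAX, which other myeloid cells share, was 378 to 778 in late CCH, and 8 T cell markers summed to 50.5 to 1762 in early and 3000 to 4643 in late CCH.

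Collagens are trimers of alpha chains wound into a triple helix. Fibrillar collagens, types I, III and V above all in the dermis, form the fibers that give skin its tensile strength, and are made mainly by fibroblasts. Type IV collagen forms the sheet of basement membranes beneath the epidermis and around vessels. The other types link, cap or anchor these structures, as the beaded filaments of type VI and the anchoring fibrils of type VII do.

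Of the 39 genes, 24 had a normalized read count of at least 10 in at least 5 libraries and were tested, namely 8 fibrillar, 4 basement membrane and 12 other chains. None of the 24 was called different between the stages by limma with Benjamini-Yekutieli (BY) adjustment over all 12397 genes tested, where a call needed a log2 fold change (log2FC, late minus early) of 1 or more in size and an adjusted p no higher than 0.05. Across all genes this rule called 1.06% higher and 1.11% lower in late CCH, or 2.17% in either direction. edgeR and DESeq2 on the recovered reads also called 0 of the 24 genes, against 1.43% and 6.53% of all genes. With limma, 5 of the 24 chains reached an unadjusted p of at most 0.05, namely COL11A2, COL8A1 and COL18A1 with higher and COL4A5 and COL4A6 with lower values in late CCH, while 30.9% of all genes reached it. With Benjamini-Hochberg (BH) adjustment, which called 9.04% of all genes, COL11A2 and COL4A6 would have been called. At a background of 2.17%, 0 of 24 is near the share of all genes.

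The chains did not share a direction. The log2FC was positive for 14 and negative for 10 of them, with a median of 0.24 beside -0.0037 for all genes tested. Among fibrillar chains it was positive for 4 and negative for 4 (median 0.16), among other chains positive for 8 and negative for 4 (median 0.33). The 4 basement membrane chains fell into 2 pairs, COL4A1 and COL4A2 near 0 and COL4A5 and COL4A6 below it, so that their median of -0.71 describes neither pair. The sign of the fibrillar median depended on the setting: it was -0.17 with edgeR, -0.18 with DESeq2, -0.38 without early library 3 and -0.08 without late library 1. For genes with a mean of at least 50 it was -0.40. Only 2 chains had stages that did not overlap, COL11A2 with all late values above and COL4A6 with all late values below the early ones, while 5.91% of all genes lay above and 6.05% below without overlap, or 12% in either direction.

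**Figure D1:**
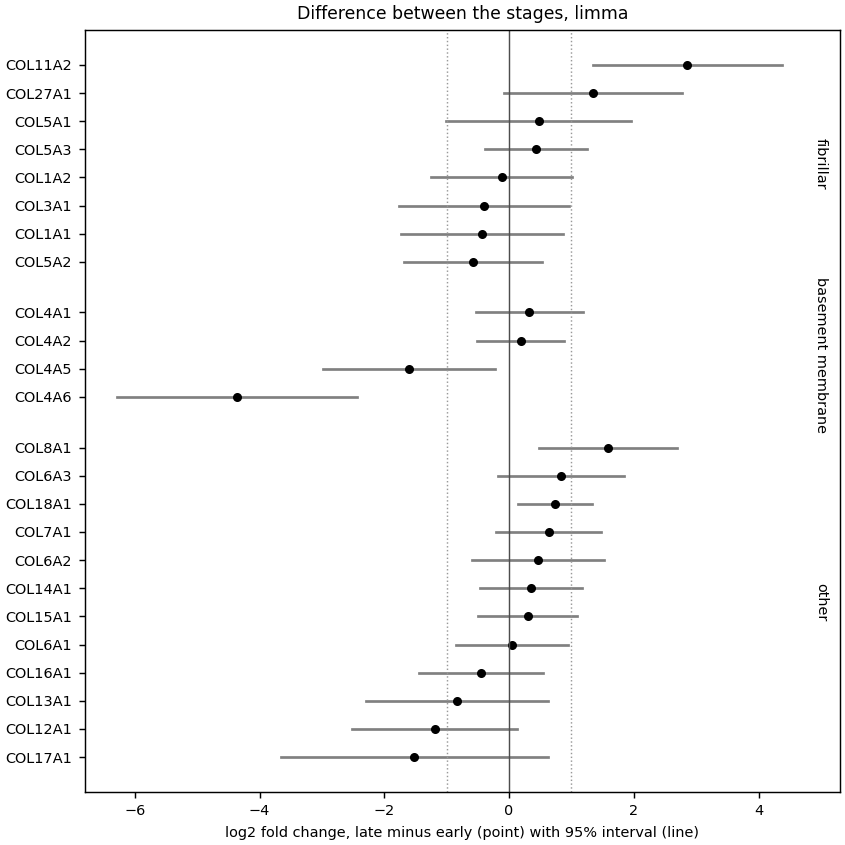
The log2 fold change of each of the 24 chains tested, late minus early CCH (point, x axis, on the log2(normalized read count + 1) scale), with its 95% interval from limma (line) and dotted lines at the threshold of 1. COL11A2 at 2.86 and COL4A6 at -4.36 lie farthest from 0, and most intervals of the abundant chains span 0.

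The chains varied widely within a stage. Their median within-stage SD on the log2 scale was 0.97 beside 0.45 for all genes tested. It was 1.16 for fibrillar, 0.94 for basement membrane and 0.88 for other chains. The widest spread was that of COL17A1 (1.91) and the narrowest that of COL18A1 (0.48).

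**Figure D2:**
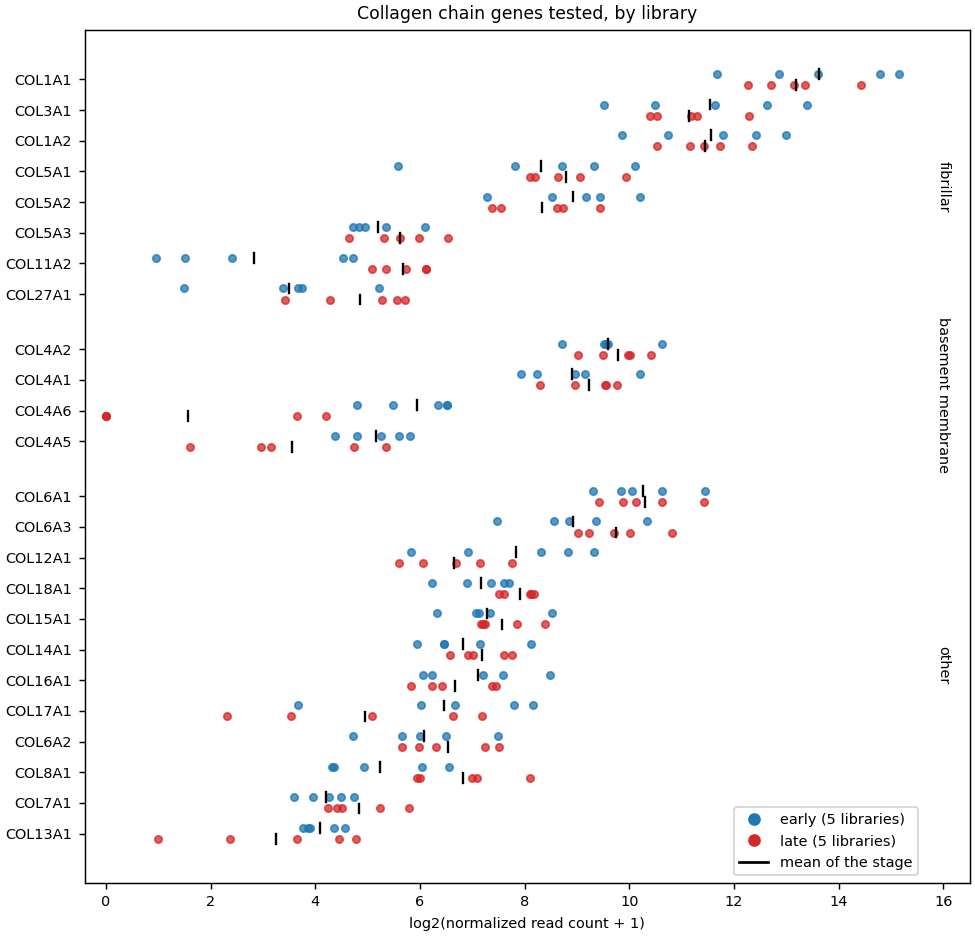
Normalized read counts of the 24 chains tested, as log2(value + 1) on the x axis, with 1 point per library (5 early, 5 late) and a vertical mark at the mean of the stage, ordered by class and level. The points of the stages are intermixed in most rows, while those of COL11A2 and COL4A6 are separate.

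Type I collagen is the main fiber protein of the dermis, and its chain gene COL1A1 was the most abundant of the 39. Its normalized read count was 12407, 36618, 3282, 7456 and 28154 in early libraries 1 to 5 and 22000, 10538, 6701, 9058 and 4912 in late libraries 1 to 5. The early libraries alone spanned 11.2-fold, and the late values lay within the early range. With means of 17584 ± 14212 in early and 10642 ± 6706 in late CCH (SD, n = 5 each), the log2FC was -0.44 (95% interval -1.73 to 0.86, adjusted p = 1, limma).

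COL1A2 encodes the partner chain of COL1A1 in type I collagen. It measured 3539, 8104, 928, 1711 and 5459 in early and 5218, 3383, 2280, 2761 and 1475 in late CCH. The same early libraries were high and low as for COL1A1, and the log2FC was -0.12 (95% interval -1.25 to 1.01, adjusted p = 1, limma). COL3A1, the chain of the thinner reticular fibers, measured 3182, 10804, 735, 1444 and 6360 in early and 4989, 2514, 1478, 2310 and 1337 in late CCH. Its early values spanned 14.7-fold, all late values lay inside that span, and the log2FC was -0.40 (95% interval -1.77 to 0.96, adjusted p = 1, limma).

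Type V collagen sits inside type I fibrils and limits their diameter. Its chain gene COL5A1 measured 417, 1106, 47.0, 225 and 638 in early and 976, 529, 272, 396 and 294 in late CCH, with a log2FC of 0.47 (95% interval -1.01 to 1.96). COL5A2 measured 577, 1174, 155, 367 and 696 in early and 691, 423, 186, 391 and 166 in late CCH, with a log2FC of -0.58 (95% interval -1.69 to 0.52), the lowest of the fibrillar chains. The stages overlapped for both genes and neither was called. COL5A3, a rarer type V chain, had 24.1 to 91.3 over all libraries and a log2FC of 0.43.

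COL11A2 and COL27A1 had the highest log2FC of the fibrillar chains. COL11A2, a chain of type XI collagen best known from cartilage, measured 0.952, 1.86, 25.3, 22.1 and 4.29 in early and 32.8, 68.5, 68.8, 39.9 and 52.5 in late CCH. Early libraries 1, 2 and 5 were near the value of a single read or a few reads, early libraries 3 and 4 were between 20 and 30, and the lowest late value was above all of them. The means were 10.9 ± 11.8 and 52.5 ± 16.3 (SD, n = 5 each), 4.82-fold higher in late CCH, from 63 early and 265 late reads in all. The log2FC of 2.86 (SE 0.70) was the highest of the 24 chains, at an unadjusted p of 0.0014 and an adjusted p of 0.176 (limma), and the gene was not called. edgeR and DESeq2 gave it a log2FC of 2.26. COL27A1, a fibrillar chain also known from cartilage, measured 12.4, 36.3, 1.81, 9.45 and 11.8 in early and 37.8, 51.4, 9.68, 18.4 and 46.2 in late CCH, with overlapping stages and a log2FC of 1.35 (95% interval -0.09 to 2.78).

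The cartilage markers did not share a direction. Of the 9 measured genes of that list 3 were tested, 2 with a positive and 1 with a negative log2FC, and none was called. The list summed to 82.8 to 283 in early and 35.8 to 102 in late CCH, and MATN3 was 251 of the 283 in early library 5. MATN3, a cartilage matrilin, measured 26.2 to 251 in early and 0 to 14.3 in late CCH without overlap (log2FC -3.13, adjusted p = 0.195, limma), while SOX9, a transcription factor of cartilage and skin appendages, had 5.37 to 64.7 over all libraries (log2FC 0.15), and COMP had 3.15 to 26.6 (log2FC 0.83). ACAN, the core proteoglycan of cartilage, had 17 early reads and 1 late read, MATN1 had 7 early and 0 late reads, and COL9A1 had no read in any library. MATN4 had 18 early and 37 late reads, UCMA had 0 and 6, HAPLN1 had 42 and 17, and CNMD had 5 and 4. COL11A1, the partner chain of COL11A2, was below the filter with 14 early and 31 late reads. In the newer dog assembly UU_Cfam_GSD_1.0 the nearest protein-coding genes on either side of COL11A2 are RXRB, a nuclear receptor gene with a log2FC of 0.27, and DLA-DOA, an MHC class II gene of antigen-presenting cells. DLA-DOA measured 17.9 ± 13.5 in early and 231 ± 187 in late CCH (log2FC 3.47, adjusted p = 0.06, limma, not called). Whether reads of a neighboring gene were counted for COL11A2 was not tested.

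Type IV chains pair by gene. COL4A1 and COL4A2, which form the network of nearly all basement membranes and are abundant around vessels, had similar levels in both stages. COL4A1 measured 565, 1174, 302, 243 and 496 in early and 871, 752, 495, 738 and 315 in late CCH (log2FC 0.33, 95% interval -0.53 to 1.18). COL4A2 measured 771, 1569, 419, 751 and 729 in early and 1358, 1009, 723, 1026 and 517 in late CCH (log2FC 0.18, 95% interval -0.52 to 0.89). All late values of both genes lay within their early range.

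COL4A6 encodes a chain of the epidermal and smooth muscle basement membrane, where it joins the COL4A5 chain. It measured 90.4, 27.0, 90.5, 80.3 and 44.0 in early CCH. In late CCH it had no read in libraries 1, 2 and 4 and measured 17.4 in library 3 and 11.5 in library 5, so that every late value was below every early value. The means were 66.4 ± 29.2 and 5.79 ± 8.20 (SD, n = 5 each), 11.5-fold lower in late CCH, and the late mean rests on 29 reads. The log2FC was -4.36 (SE 0.89, 95% interval -6.29 to -2.44), the lowest of the 24 chains, at an unadjusted p of 0.0003 and an adjusted p of 0.0779 (limma), which missed the threshold. The log2FC was -3.48 with edgeR and -3.51 with DESeq2. Without late library 3 the gene was called (log2FC -5.02, adjusted p = 0.0336, limma), as it was with a pseudocount of 5 (log2FC -2.94, adjusted p = 0.0342).

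COL4A5, whose gene lies next to COL4A6 in a head-to-head arrangement, measured 47.6, 37.2, 55.2, 19.7 and 26.8 in early and 7.95, 25.7, 6.78, 2.05 and 39.9 in late CCH. Late libraries 1, 3 and 4 were below all early ones, while late libraries 2 and 5 lay among them. The log2FC was -1.60 (95% interval -2.99 to -0.22) at an unadjusted p of 0.0264 and an adjusted p of 1 (limma). COL4A3 and COL4A4, the chains typical of kidney and lung basement membranes, had 1 early and 8 late reads and no read at all, respectively.

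Epidermis left in the section can be read from 10 basal keratinocyte markers, which summed to 8677, 3506, 1503, 7275 and 841 in early and 1087, 3639, 646, 1429 and 5407 in late CCH. None of the 10 was called, and the stages overlapped. COL17A1, the hemidesmosome collagen of basal keratinocytes, measured 220, 100, 64.2, 285 and 11.8 in early and 3.98, 98.0, 10.7, 32.7 and 144 in late CCH. Early libraries 1 and 4 and late library 5, which had the highest marker sums, also had the highest COL17A1 values. Its log2FC was -1.52 (95% interval -3.65 to 0.62, adjusted p = 1, limma), the lowest of the other chains. COL7A1, the anchoring fibril chain beneath the epidermis, measured 25.7, 21.4, 14.5, 11 and 18.3 in early and 17.9, 21.9, 20.3, 36.8 and 54.6 in late CCH, with a log2FC of 0.64 (95% interval -0.21 to 1.48).

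Set against the marker sum, COL17A1, COL4A6 and COL4A5 differed from each other. COL17A1 took 14.0 to 42.7 reads per 1000 keratinocyte marker reads in early and 3.66 to 26.9 in late CCH. COL4A6 took 10.4, 7.70, 60.2, 11 and 52.4 per 1000 in early and 0, 0, 27.0, 0 and 2.13 in late CCH, so that its stages overlapped on this scale through late library 3. The make-up of the marker sum differed between libraries. KRT5 and KRT14 were 3912 and 3896 of 8677 in early library 1, and 164 and 94.9 of 646 in late library 3. In late library 3 ITGA6 was 142 and DST was 141. COL4A5 took 2.71 to 36.7 per 1000 in early and 1.43 to 10.5 in late CCH. TP63, the transcription factor of basal keratinocytes and 1 of the 10 markers, measured 76.9 to 125 in early and 9.94 to 74.2 in late CCH without overlap (log2FC -1.42, adjusted p = 0.415, limma). It was the only marker of the list below 0 at an unadjusted p of at most 0.05, and ITGA6 (log2FC 0.92) and DST (0.45) were above 0 at that p. Over the list, 7 log2FC values were negative and 3 positive. COL4A6 was set against the keratinocyte markers alone. The parts of epidermal, smooth muscle and Langerhans lineage cells in its difference were not tested. In bulk tissue, fewer cells of a type and less RNA per cell cannot be told apart.

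**Figure D3:**
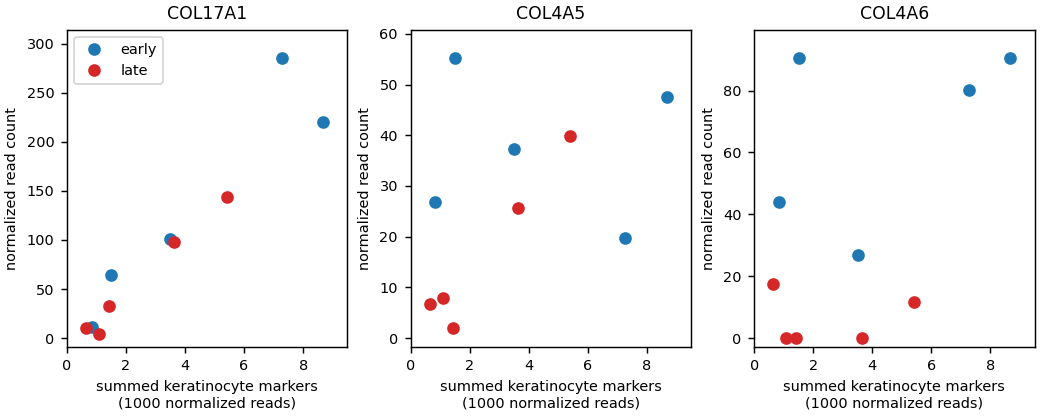
Normalized read count of COL17A1, COL4A5 and COL4A6 (y axes) against the summed normalized read count of 10 basal keratinocyte markers divided by 1000 (x axes), with 1 point per library. COL17A1 is high where the marker sum is high, and the COL4A6 values of the late libraries are 0 to 17.4.

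Type VI collagen forms beaded filaments around cells. COL6A1 measured 1060, 2803, 634, 913 and 1577 in early and 2751, 1583, 688, 1119 and 943 in late CCH, with a log2FC of 0.04 (95% interval -0.85 to 0.94). COL6A3, whose chain carries the long globular extension of the filament, measured 463, 1288, 177, 376 and 656 in early and 1797, 1031, 515, 834 and 597 in late CCH, with a log2FC of 0.84 (95% interval -0.17 to 1.84). COL6A2 had 25.3 to 181 over all libraries and a log2FC of 0.47. None of these was called and their stages overlapped. COL6A5, an additional type VI chain, had 1 early and 24 late reads, most of them in late library 4 (19.4), and COL6A6 had 6 and 11 reads.

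Vessels are surrounded by the basement membrane collagens XV and XVIII. COL18A1, the precursor of endostatin, measured 164, 207, 74.2, 193 and 118 in early and 278, 272, 181, 193 and 290 in late CCH. Its means were 151 ± 55.0 and 243 ± 51.4 (SD, n = 5 each), with overlapping stages, a log2FC of 0.74 (95% interval 0.15 to 1.34), an unadjusted p of 0.0181 and an adjusted p of 0.844 (limma). COL15A1 measured 133, 365, 78.7, 161 and 138 in early and 333, 230, 151, 147 and 143 in late CCH, with a log2FC of 0.30. COL8A1, a short-chain collagen of vessel walls, measured 29.5, 19.5, 19.0, 64.6 and 93.4 in early and 127, 60.9, 136, 273 and 63.0 in late CCH. Only early libraries 4 and 5 reached the late values, and the log2FC of 1.59 (95% interval 0.48 to 2.69), at an unadjusted p of 0.0086 and an adjusted p of 0.529 (limma), was the highest of the other chains. Beside these chains, 10 endothelial markers summed to 556 to 1096 in early and 769 to 1443 in late CCH, 8 of the 10 had a positive log2FC and none was called. Their part in the values of the vessel collagens was not tested.

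The remaining tested chains lie on fibril surfaces or in cell membranes. COL12A1, a fibril-associated chain of stressed tissue, measured 637, 454, 56.1, 121 and 317 in early and 140, 217, 65.9, 102 and 47.2 in late CCH. Early libraries 1, 2 and 5 were above all late ones, early libraries 3 and 4 were not, and the log2FC was -1.19 (95% interval -2.52 to 0.13, adjusted p = 1, limma). The fibril-associated chains COL14A1 (60.6 to 279 over all libraries, log2FC 0.35) and COL16A1 (56.2 to 355, log2FC -0.45) overlapped widely. COL13A1, a membrane-spanning collagen, measured 12.6 to 22.8 in early and 0.994 to 26.6 in late CCH, with a log2FC of -0.84.

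Of the 15 chains below the filter, COL21A1 (37 early and 44 late reads) and COL8A2 (37 and 41) had the most reads. COL9A2 had 10 and 14, COL28A1 had 9 and 13 and COL24A1 had 9 and 2. COL9A3 had 12 early reads and COL25A1 had 9, and neither had a late read. COL22A1 had 2 late reads, COL23A1 had 1 early read, and COL4A4 and COL9A1 had none. These reads were too few for a test of the stages.

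As a share of all reads assigned to genes, the 39 chains took 0.773%, 2.05%, 0.228%, 0.421% and 1.37% in early and 1.37%, 0.765%, 0.457%, 0.633% and 0.377% in late CCH. The means were 0.968% ± 0.743 and 0.721% ± 0.394 (SD, n = 5 each), and the late libraries lay within the early range. Without early library 2 the late mean was above the early one, by 0.022 percentage points. Fibrillar chains made up most of the share, with 0.824% ± 0.671 in early and 0.555% ± 0.329 in late CCH, ahead of other chains (0.0984% ± 0.0539 and 0.115% ± 0.0509) and basement membrane chains (0.0458% ± 0.0237 and 0.0511% ± 0.0173). COL1A1 alone held 41.7% to 61.0% of the collagen chain reads of a library, and COL1A1, COL1A2 and COL3A1 together held 65.6% to 86.6%.

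**Figure D4:**
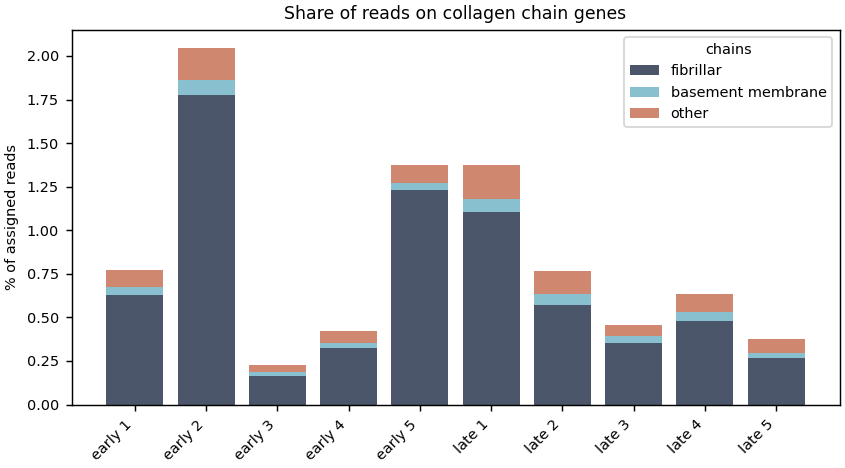
Share of all assigned reads on the 39 collagen chain genes (y axis, percent) in each of the 10 libraries, stacked by class. The bars range from 0.228% in early library 3 to 2.05% in early library 2, and the fibrillar chains fill most of every bar.

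The same libraries were high or low for many chains. Early library 2 had the highest value of its stage for 15 of the 24 chains, including 7 of 8 fibrillar chains, and early library 3 had the lowest for 16 of the 24, including 7 of 8 fibrillar chains. The fibrillar chains of early library 3 had a median log2 difference from the stage mean of -1.82, and those of early library 2 one of 1.48. In late CCH, library 1 was highest for 11 chains and library 5 lowest for 9. Of 10 fibroblast markers, 9 were measured, and they summed to 4215, 6892, 3376, 2471 and 7595 in early and 5668, 6324, 3594, 6216 and 4952 in late CCH. Fibrillar chain reads per fibroblast marker read were 1.54 to 8.40 in early and 1.68 to 6.0 in late CCH. The marker sum in this ratio includes THY1, which was 396 to 700 in early and 893 to 1749 in late CCH. Within that marker list THY1, a surface protein of fibroblasts that T cells and other cells can also carry, rose from 531 ± 123 to 1390 ± 334 (SD, n = 5 each; log2FC 1.38, adjusted p = 0.0226, limma), and no other marker of the list was called.

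Chains of the same or an associated collagen were compared by their ratio within a library, which leaves out the overall collagen level of the library. These ratios were described without a test. COL3A1 to COL1A1 was nearly constant, at 0.239 ± 0.038 in early and 0.243 ± 0.021 in late CCH (SD, n = 5 each), although COL1A1 itself spanned 11.2-fold. COL1A1 to COL1A2 was 4.22 ± 0.70 in early and 3.38 ± 0.49 in late CCH, with overlapping stages.

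Of the 6 ratios, 2 did not overlap between the stages, while 11.4% of all pairs of genes tested did not overlap. COL6A3 to COL6A1 was 0.437, 0.459, 0.280, 0.412 and 0.416 in early and 0.653, 0.651, 0.749, 0.746 and 0.633 in late CCH, a difference of 0.79 on the log2 scale. All late libraries held more COL6A3 per COL6A1 than any early library. COL5A2 to COL5A1 was 1.38, 1.06, 3.29, 1.63 and 1.09 in early and 0.708, 0.80, 0.683, 0.987 and 0.564 in late CCH, a difference of -1.06 on the log2 scale. The read count of COL5A2 exceeded that of COL5A1 in every early library and was below it in every late library. Whether reads count the transcripts of 2 genes equally was not tested, so a ratio of 1 need not mean equal amounts. COL4A2 to COL4A1 was 1.34 to 1.64 in 9 libraries and 3.08 in early library 4, and COL6A2 to COL6A1 was 0.0548 ± 0.0090 in early and 0.0741 ± 0.0151 in late CCH with overlap.

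**Figure D5:**
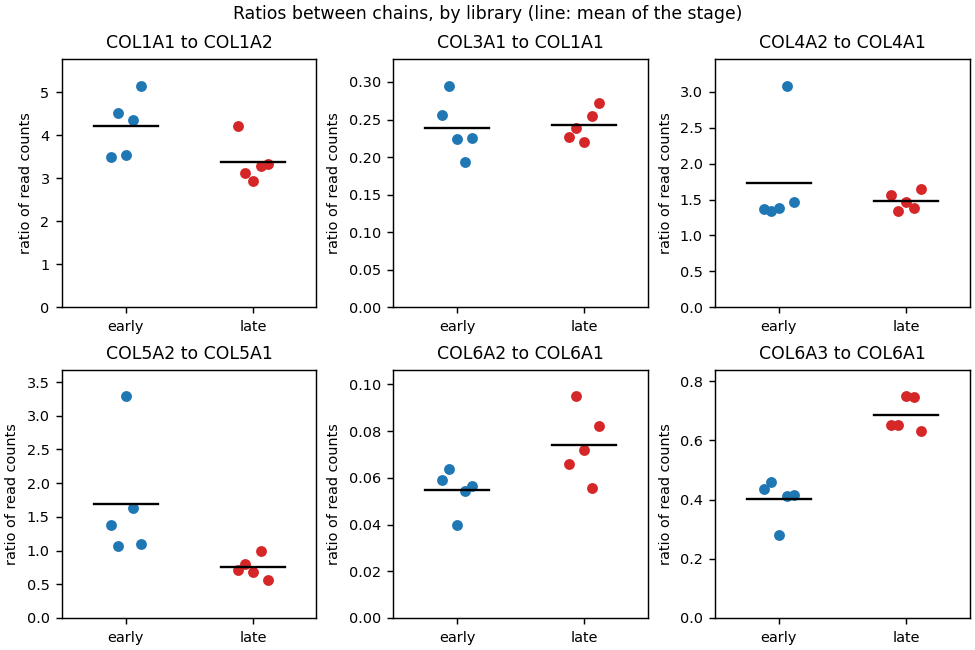
Ratio of the normalized read counts of 2 chains of the same or an associated collagen (y axes, from 0), with 1 point per library and a line at the mean of the stage. COL6A3 to COL6A1 and COL5A2 to COL5A1 separate the stages, and the other 4 ratios overlap.

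A collagen trimer is made, exported, processed, bound and degraded by a set of other proteins, and 94 genes in 7 lists stand for these steps. Of them 90 were measured and 78 tested, and 39 had a positive and 39 a negative log2FC. Only LAIR1 was called, and at a background of 2.17% of all genes, 1 of 78 is near that share. LAIR1, an inhibitory collagen receptor of leukocytes, measured 23.8, 61.4, 77.8, 69.3 and 29.0 in early and 356, 223, 236, 130 and 254 in late CCH, without overlap. It rose from 52.3 ± 24.4 to 240 ± 80.8 (SD, n = 5 each; log2FC 2.25, SE 0.36, adjusted p = 0.0312, limma). The T cell marker sum given above and the sum of 8 macrophage markers (1068 to 8554 in early, 5101 to 11862 in late CCH) moved in the same direction, and their part in the LAIR1 value was not tested. Of the other receptors, 6 of 8 tested genes had a positive log2FC, and the lowest was ITGA11, an integrin subunit of fibroblasts (-0.85).

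Among the 12 tested genes of propeptide cleavage and crosslinking the median log2FC was 0.53. ADAMTS14, which removes the amino-terminal propeptide of fibrillar procollagens, measured 0, 2.79, 1.81, 2.36 and 0 in early and 33.8, 24.7, 22.3, 14.3 and 13.6 in late CCH. Its stages did not overlap, and it passed the filter through its late libraries alone. Its log2FC of 3.40 (SE 0.62) was the highest of the pathway genes, and with an adjusted p of 0.0501 (limma) it was not called. TLL1, a protease that removes the carboxy-terminal propeptide, was lowest at -1.03.

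The lists of chain modification (13 tested, median -0.25) and of folding and export (9 tested, median -0.26) were slightly below 0. Their extremes were PLOD3, a lysyl hydroxylase (-0.60), and P3H3, a prolyl hydroxylase family member (0.61), and SEC23A, a coat protein of export vesicles (-0.87), and MIA3, the export receptor of large procollagens (0.10). No gene of these lists was called. The 13 fibril partners had a median of -0.13, from THBS2, a matricellular thrombospondin (-1.5), to TNXB, a tenascin that spaces dermal fibrils (1.40). The 12 basement membrane partners had a median of 0.09, from NID2, a nidogen linking laminin to type IV collagen (-1.40), to LAMA5, a laminin chain (0.68). The 10 breakdown genes had a median of 0.16, from TIMP2 (-0.60) to TIMP3 (1.79, adjusted p = 0.14, limma), both inhibitors of matrix metalloproteinases.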

How the data were processed

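RNA of 5 early and 5 late CCH was sequenced with QuantSeq 3′ FWD in the protocol for low-quality RNA. According to the methods, the authors trimmed reads with Cutadapt, aligned them with STAR to CanFam3.1 with RefSeq annotation, and counted them with featureCounts, in a second round on genes extended at their 3′ end, with multi-mapped reads spread over their places; tool versions and the strand setting are not given in the sources used here. The deposited signal is a normalized read count, which the authors obtained by dividing counts by a size factor per library. All of the 166096 values above 0 (100%) were whole multiples of the value of a single read (tolerance 0.001), which gave back whole reads. Spreading multi-mapped reads can give fractional counts, and how the deposited counts came to be whole is not stated in the sources used here. Of 21 columns of values, 11 fit no label of this series and stayed out of every step. Columns carry the stage but no replicate number. P-values set the difference between the stages against the spread between dogs within a stage, and they cannot separate stage from batch.

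The main test was limma 3.58.1 with a mean-variance trend in R 4.3.3 on log2(value + 1), over all genes with at least 10 in at least 5 libraries, without covariates. A log2FC is the difference of the stage means of log2(value + 1), not the log of the ratio of the means, and for low genes with values near 0 it depends on the pseudocount. P-values were BY-adjusted. edgeR 4.0.16 and DESeq2 1.42.0 on the recovered reads, other pseudocounts (0.5 and 5), filters, scalings, BH adjustment and leaving out each library were alternatives. The fits were tested on simulated counts.

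Named chains were those with the highest and lowest log2FC of each class, the 10 most abundant, the chains of the ratios and the defining chains of cartilage, the dermal-epidermal junction and vessels; the other chains are given by ranges and counts. COL4A5, COL27A1 and COL11A1 and the single marker genes were named after their values were seen. Of each pathway list the genes called and the extremes were named. Chain classes, pathway lists, marker lists and this rule were chosen with earlier results of these data known. Gene order came from the RefSeq table of UU_Cfam_GSD_1.0.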

Additional observations from a re-analysis of the deposited data

Results flagged for a closer look

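In 68 groups of 5 libraries examined, 4 held a library farther from its nearest neighbor than the 95% limit of Dixon's gap test (0.71 of the range of the group), where chance gives about 1 in 20, or 3.4. COL15A1, a chain of vessel basement membranes, was 365 in early library 2 with the next value at 161. The COL4A2 to COL4A1 ratio was 3.08 in early library 4 with the next at 1.47. The COL5A2 to COL5A1 ratio was 3.29 in early library 3 with the next at 1.63, and the COL6A3 to COL6A1 ratio was lowest in the same library, at 0.280 with the next at 0.412. Early library 3 also had the lowest value of its stage for 16 of the 24 chains tested. Without it, the stage difference on the log2 scale was -0.79 for COL5A2 to COL5A1 and 0.67 for COL6A3 to COL6A1.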

How the results depend on the processing

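Of the 24 chains tested, 19 kept the direction of their log2FC in every alternative that tested them, and 2, COL4A6 and COL11A2, were called in at least 1 of the 21 alternatives. The filter on a mean of at least 50 tested only 17 of the 24. With BH adjustment 1 chain was called higher (COL11A2, adjusted p = 0.0176) and 1 lower (COL4A6, adjusted p = 0.0078), against 9.04% of all genes. With a pseudocount of 5, 1 chain was called lower (COL4A6, log2FC -2.94). Leaving out 1 library at a time gave 0 to 1 chains called lower, the 1 being COL4A6 without late library 3, and 0 called higher. Over all alternatives the adjusted p of COL4A6 was 0.0078 to 0.331 and that of COL11A2 0.0176 to 0.455. The basement membrane median of -0.71 became 0.18 without a filter on low values, 0.26 for genes with a mean of at least 50, which leaves out COL4A5 and COL4A6, and 0.24 with COL15A1 and COL18A1 counted in the class. Leaving out 1 library turned the sign of 5 chains with small differences, whose log2FC then spanned -0.54 to 0.24 for COL1A2, -0.91 to 0.062 for COL3A1, -0.036 to 0.44 for COL4A2, -0.21 to 0.92 for COL5A1 and -0.24 to 0.34 for COL6A1. The other 11 alternatives turned no sign of a chain that they tested. Scaling by column totals moved the median of all genes to 0.09. No paired analysis was possible because no column name holds a replicate number and the stages come from different dogs. Depth limits the 15 chains below the filter and the late values of COL4A6, and batch and stage cannot be told apart.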

Other observations

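Marker lists of other cells that a skin section can hold were summed as normalized read counts in each library. Pericyte and smooth muscle markers (9 of 10 genes measured) summed to 811 to 1425 in early and 952 to 1891 in late CCH. Schwann cell markers (6 of 8 measured) summed to 29.9 to 81.1 and 20.9 to 75.5, adipocyte markers (6 of 6) to 18.1 to 174 and 7.34 to 323, and skeletal muscle markers (8 of 8) to 3.15 to 33.5 and 0 to 19.0. B cell markers (6 of 6) summed to 479 to 721 and 599 to 3147. CD22 made up 375 to 576 of the early sums and 203 to 900 of the late ones. Its log2FC was -0.28, and the other 5 B cell genes had a positive log2FC. No gene of these 5 lists was called by limma with BY adjustment, where 1 pericyte and smooth muscle gene and 5 B cell genes reached an unadjusted p of at most 0.05, which 30.9% of all genes reached. Of the macrophage list no gene was called and 5 of 7 tested genes reached that p with higher values in late CCH. Of the Langerhans and dendritic cell list FLT3 and FCER1A were called lower in late CCH. CD1A8 was not called (adjusted p = 0.171, limma), and all 6 tested genes of that list had a negative log2FC. Of the T cell list CD6 was called higher and all 8 genes had a positive log2FC.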
